A study of Mus musculus with 2 samples.

Results

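Foxl2, Gng13, Sprr2d, Runx1, Cdkn1b and Kitl are genes used as markers of early granulosa cells, the supporting cells of the ovary, and they were examined here apart from follistatin (Fst), the best known marker of that kind. The members were all probe sets whose platform annotation gives exactly 1 of these symbols, 17 probe sets for 6 genes among 34945 probe sets with 1 symbol for 18193 genes. Expression was measured on 2 oligonucleotide arrays. The wild-type array held RNA of gonad-mesonephros complexes, the fetal gonad with its attached mesonephric kidney, from XX wild-type embryos at E12.5, with no strain given in the labels. The mutant array held RNA of complexes from XX Gata4ki/ki embryos of the same age, labelled C57Bl/6. Each array carried RNA of 6 pairs of complexes, so each group is 1 pooled sample and no replicate error, test or p-value exists for any difference below. Gata4ki encodes a form of the transcription factor GATA4 that binds its FOG cofactors less well, and every mutant embryo was homozygous for this allele. The comparison asks how transcripts of the developing ovary differ when that complex is impaired.

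In the XX gonad the supporting cells become pre-granulosa cells, which stop dividing and later surround the germ cells in follicles. FOXL2, a forkhead transcription factor, is a defining regulator of this lineage and keeps it from taking the testicular Sertoli fate. RUNX1, a DNA-binding factor that works with CBFB, is also expressed in these cells and acts beside FOXL2. CDKN1B (p27) is an inhibitor of cyclin-dependent kinases that accompanies the arrest of pre-granulosa cells. KITL (stem cell factor) is the ligand that somatic cells present to the KIT receptor of germ cells. Gng13 encodes a G protein gamma subunit best known from taste and smell receptor cells, and Sprr2d a small proline-rich protein of the cornified envelope of squamous epithelia. Both serve here as transcript markers of the early ovary.

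The values are MAS5 signals, which weigh the probes of a probe set into 1 brightness on a linear scale. Signals at or under a floor of 24.0, the median over both arrays, were treated as not measured, and where only 1 array exceeded the floor the ratio is given as a bound. Log2 ratios are mutant minus wild type, and a probe set or gene was counted when it was at least 2-fold apart. All 6 genes had a probe set that exceeded the floor on at least 1 array, and 11 of the 17 probe sets did so. Signals of different probe sets do not rank the genes by abundance, since each probe set binds its target differently.

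The members divided into 3 genes that were far lower in the mutant and 3 that were less than 2-fold apart. Foxl2, Gng13 and Sprr2d were at least 4.13-fold lower. Cdkn1b was 1.86-fold lower, all 4 probe sets of Kitl were lower by less than 2-fold, and the probe sets of Runx1 pointed both ways. In all, 3 of the 11 measured member probe sets were at least 2-fold lower and 0 were at least 2-fold higher. Over all 21238 measured probe sets with 1 symbol, 0.622% were at least 2-fold lower and 0.753% at least 2-fold higher. By gene, with each gene represented by its brightest measured probe set, 3 of 6 members were at least 2-fold lower, where 0.537% of 12300 measured genes were and 0.846% were at least 2-fold higher. These genes were already known as markers of interest for this mutant, so the count is a description and not independent evidence of a direction.

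**Figure D1:**
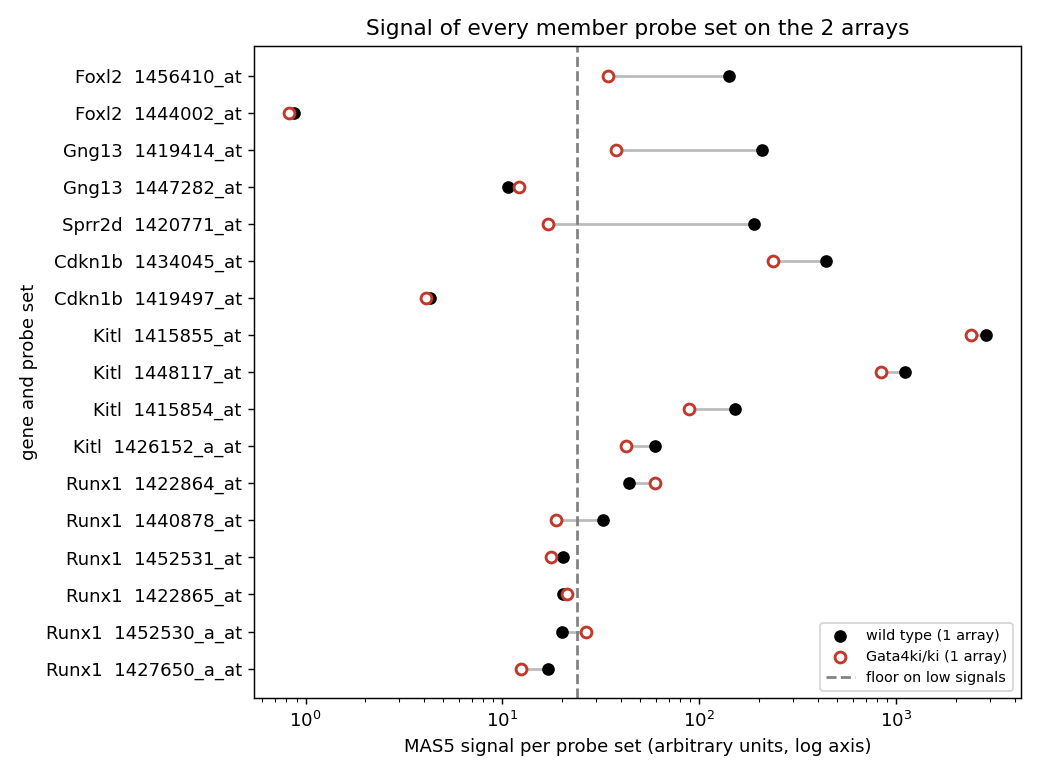
Deposited signal (arbitrary units, log axis) of each of the 17 member probe sets on the wild-type array (black) and on the Gata4ki/ki array (open red), 1 array each, with a grey line joining the 2 values and a dashed line at the floor of 24.0. Foxl2, Gng13 and Sprr2d show the widest gaps, and Runx1 stays near the floor on both arrays.

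On probe set 1456410_at the Foxl2 signal was 142 for wild type against 34.5 for the mutant. The mutant signal was thus 24.2% of the wild-type one, a log2 ratio of -2.05 or 4.13-fold lower. It lay above the floor on both arrays, although the mutant value was close to it. The other Foxl2 probe set, 1444002_at, gave 0.876 and 0.826 and did not report the transcript on either array, so the Foxl2 result rests on 1 probe set.

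On probe set 1419414_at the Gng13 signal was 209 for wild type against 37.9 for the mutant. This was 5.51-fold lower, a log2 ratio of -2.46, with both arrays above the floor. Its other probe set, 1447282_at, gave 10.7 and 12.1 and was not measured. The Gng13 result therefore also rests on 1 probe set.

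Sprr2d, which has a single probe set (1420771_at), gave 189 for wild type against 17.0 for the mutant. The mutant value lay under the floor, so the gene was at least 7.87-fold lower, a log2 ratio of -2.98 or less. The deposited signals themselves differ 11.1-fold. Counted from the lowest ratio among the 11462 genes above 24.0 on each array, Gng13 stood at rank 2 and Foxl2 at rank 5. Sprr2d, known only as a bound, has no rank. All 3 had a mean floored signal under 100, where 1.22% of probe sets were at least 2-fold lower.

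The upstream sequences of these 3 genes are shown because they are the members with the largest differences, in a mutant of a factor that binds GATA motifs. Each is the 250 bases before the transcription start, 5′ to 3′ on the gene's own strand, from RefSeq on GRCm38.p6. All 6 members were matched by symbol, with 8 starts among them. Capitals mark matches, on either strand, to the core GATA, to longer motifs that contain this core, and to TATAAA, the TATA box of the core promoter. The longer motifs are AGATAA as the first, AGATAG as the second, TGATAA as the third and TGATAG as the last. For Gng13 the more upstream of 2 starts is shown. The windows are chr9:98955357-98955606 for Foxl2, chr17:25716922-25717171 for Gng13 and chr3:92338890-92339139 for Sprr2d, all on the plus strand.
Foxl2: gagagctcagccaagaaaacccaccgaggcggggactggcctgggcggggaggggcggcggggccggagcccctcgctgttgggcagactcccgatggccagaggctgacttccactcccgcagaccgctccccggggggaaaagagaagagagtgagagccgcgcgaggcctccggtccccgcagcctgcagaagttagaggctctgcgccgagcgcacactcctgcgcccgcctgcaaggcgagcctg
Gng13: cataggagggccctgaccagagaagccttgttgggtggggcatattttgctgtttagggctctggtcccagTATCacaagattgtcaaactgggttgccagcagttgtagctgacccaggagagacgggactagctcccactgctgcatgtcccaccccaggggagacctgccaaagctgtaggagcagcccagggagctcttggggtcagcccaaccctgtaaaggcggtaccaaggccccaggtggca
Sprr2d: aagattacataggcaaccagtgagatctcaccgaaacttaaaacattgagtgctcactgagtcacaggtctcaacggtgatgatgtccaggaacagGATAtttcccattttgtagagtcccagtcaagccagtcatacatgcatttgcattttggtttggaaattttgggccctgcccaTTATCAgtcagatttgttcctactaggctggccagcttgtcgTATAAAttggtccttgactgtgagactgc

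These windows differed in base composition and in motif content. The Foxl2 window had a G and C content of 70.8% and held none of the motifs. The Gng13 window, at 58.8%, held 1 GATA core on the minus strand, 179 to 176 bases before the start. The Sprr2d window was the richest in A and T of the 8, with a G and C content of 44.4%. It held TATAAA 29 to 24 bases before the start, TGATAA on the minus strand 71 to 66 bases before it, and another GATA core 154 to 151 bases before it.

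A GATA core is common in windows of this size. It was found in 53.6% of the 32841 RefSeq windows of 250 bases, a longer GATA motif in 26.5% and TATAAA in 12.4%. Among the 8 member windows 3 held the core, 1 held a longer motif and 2 held TATAAA, the latter in Sprr2d and Kitl. The remaining core match lay 110 to 107 bases before the more downstream of 2 starts of Runx1. A match shows only that these letters are present, and the arrays did not measure binding.

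**Figure D2:**
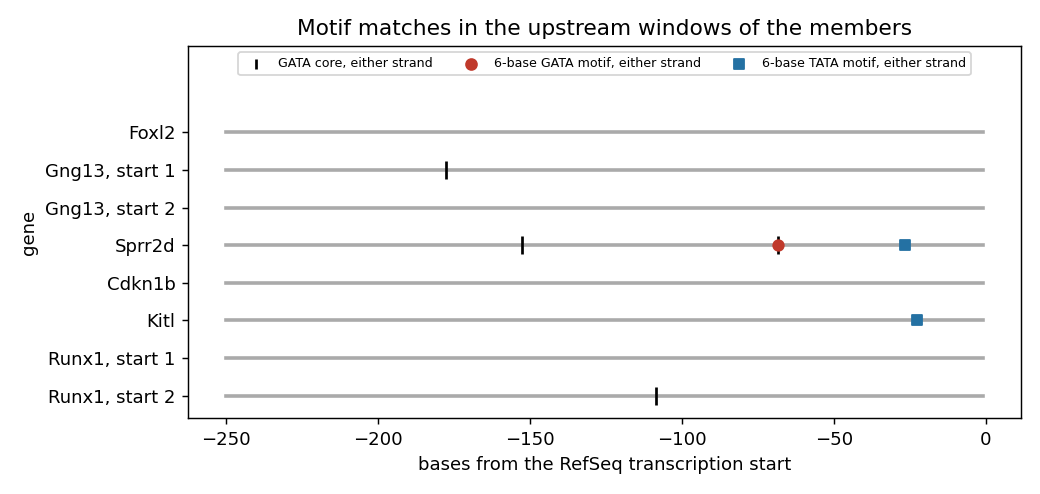
Positions of motif matches (in bases from the RefSeq start, x axis) in the 250-base upstream windows of the 6 members (y axis, 8 starts), with black ticks for the GATA core, red circles for the 6-base GATA motifs and blue squares for TATAAA, on either strand. Sprr2d alone among these windows holds a 6-base GATA motif, and the Foxl2 window holds none of the motifs.

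Neighbouring and related transcripts were read beside Foxl2 and Sprr2d, and this choice was made with their values in view. Foxl2os is a long noncoding RNA that starts head to head with Foxl2, its first base lying 297 bases from that of Foxl2, so that their upstream windows overlap over 204 bases. Its probe set gave 37.2 for wild type against 0.391 for the mutant, at least 1.55-fold lower with the mutant under the floor. Both transcripts of this divergent pair thus had the lower signal on the mutant array. The Foxl2os signal was close to the floor on the wild-type array too, so its difference is poorly measured.

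The Sprr2 genes are close paralogs in a single cluster, and probes can match more than 1 of them. Of 8 other probe sets for Sprr2 genes, 6 were not measured on either array. The probe set annotated to Sprr2a1, Sprr2a2 and Sprr2a3 together (1439016_x_at) gave 74.5 and 32.9, 2.27-fold lower, in the same direction as Sprr2d. Sprr2f gave 9.00 and 28.9, at least 1.20-fold higher. Whether any of these probe sets read Sprr2d RNA, or the reverse, was not tested.

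On probe set 1434045_at the Cdkn1b signal was 439 for wild type against 236 for the mutant. This was 1.86-fold lower, a log2 ratio of -0.89, and ranked 79 from the lowest of the 11462 genes measured on each array. The other probe set, 1419497_at, gave 4.29 and 4.08 and was not measured. At mean signals from 100 to 400, where this probe set lies, the robust SD of the log2 ratio over all probe sets was 0.22, and 0.291% of probe sets were at least 2-fold lower. That SD describes probe sets of the same 2 samples and not the spread between embryos.

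The other measured CDK inhibitors also had lower signals in the mutant on their brightest probe sets, by less than 2-fold. Cdkn1c (p57), an imprinted relative of p27, gave 3618 and 2558, a log2 ratio of -0.50. Cdkn1a (p21), a p53 target, had a ratio of -0.75 on its brightest probe set and 0.05 on the other. Cdkn2b, Cdkn2c and Cdkn2d had ratios of -0.32, -0.17 and -0.05, and Cdkn2a was at or under the floor. The robust SD over all probe sets of like signal was 0.38 for Cdkn2b and Cdkn2c and 0.22 for Cdkn2d. Each of their ratios was smaller than that, so no difference in these genes was resolved. All 5 measured genes of this list had a ratio below 0, with a median of -0.32, where 48.6% of all measured genes were below 0 and their median was 0.01. That count includes the unresolved Cdkn2b, Cdkn2c and Cdkn2d, and the list median is the Cdkn2b value.

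The kinases that p27 inhibits and the ligase that degrades it were closely matched. Of 18 measured genes 0 were at least 2-fold apart, 9 had a ratio below 0 and 9 above it, and the median was -0.00. Skp2, the F-box protein that targets p27, gave 1379 and 1311 on its brightest probe set. Foxo3, a forkhead activator of Cdkn1b transcription, had the largest ratio, 0.58, with a ratio of -0.16 on another probe set. Ccne2, Ccne1 and Ccne1's partner Cdk2 had ratios of -0.28, -0.25 and 0.02.

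Kitl had 4 probe sets, all above the floor on both arrays and all lower in the mutant. The brightest, 1415855_at, gave 2844 and 2387, a log2 ratio of -0.25. The next, 1448117_at, gave 1108 and 839, a ratio of -0.40. The dimmer 1415854_at and 1426152_a_at gave 151 and 88.2, and 59.6 and 42.4, ratios of -0.78 and -0.49. The 4 probe sets read the same 2 RNA samples, so their common direction describes those samples only. Kitl ranked 1467 from the lowest of those 11462 genes by its brightest probe set. At mean signals above 400 the robust SD of the ratio was 0.13, and 0.116% of probe sets were at least 2-fold lower.

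The receptor for KITL and its signalling genes were not 2-fold apart. Kit, which marks germ cells, gave 131 and 187 on its brighter probe set, a ratio of 0.51, and 32.0 and 29.8 on the other, a ratio of -0.10. Of the 12 measured genes of the KIT list 0 were 2-fold apart, 8 had a ratio above 0, and the median was 0.10. Stat5a, a signal transducer, had a ratio of 0.51, and Pik3ca and Stat5b, the former a lipid kinase subunit, had ratios of -0.23 and 0.19. Endothelial cells also express Kitl. On the same arrays 11 of 14 endothelial markers had a ratio below 0, as did 48.6% of all measured genes. The signals of these markers summed to 3623 on the wild-type and 3119 on the mutant array. The part of endothelial cells in the Kitl values was not tested.

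Runx1 was close to the floor on both arrays, and its 6 probe sets gave no common direction. The brightest, 1422864_at, gave 44.1 for wild type against 59.2 for the mutant, 1.34-fold higher with a log2 ratio of 0.43. Probe set 1440878_at gave 32.4 and 18.7, a ratio of -0.43 or less. Probe set 1452530_a_at gave 20.0 and 26.5, a ratio of 0.14 or more. The other 3 ranged from 12.4 to 21.2 and were not measured. At mean signals under 100 the robust SD of the ratio over all probe sets was 0.38, about as large as the Runx1 ratios, so no difference in Runx1 was resolved by these arrays.

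Genes of RUNX cofactors gave no 2-fold difference. Cbfb, the shared partner subunit, gave 2365 and 2373. No other RUNX gene was measured, since Runx3 was at or under the floor on both arrays and Runx2 was not analysed here. Of 8 measured genes of the list, which are Cbfb, Runx1t1 and the TLE and CBFA2T corepressors, 0 were 2-fold apart, and ratios ran from -0.33 to 0.17 with a median of 0.04.

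Runx1 is also a gene of blood cells, and most blood markers had higher signals on the mutant array. Of 13 measured white blood cell genes, mostly macrophage ones, 11 had positive ratios, where 48.6% of all measured genes were below 0. The signals of the 13 summed to 1675 on the wild-type and 2568 on the mutant array. Csf1r had the largest signal on each array, 626 and 1066. Mpo, Ptprc, Fcer1g and Cd52 had ratios of 1.77, 0.92, 0.87 and 0.78, while the defining marker Itgam was at or under the floor. Cx3cr1 and Spi1 went the other way, at -0.39 and at -0.21 or less, and Lyz2 was at 0.00. Of 9 red cell genes 5 reached 2-fold higher signals, namely Hemgn, Klf1, Slc4a1, Ermap and Alas2, with ratios of at least 2.19 and of 1.66, 1.42, 1.16 and 1.03. Their wild-type signals were low, from 20.2 for Hemgn to 68.6 for Alas2, and another probe set of Slc4a1 had 0.95. Epor and Gata1 had ratios of 0.23 and 0.19. The globins, which carry most of the list sums of 13429 and 14428, were close, with Hbb-y at -0.04 (9198 and 8977) and Hba-x at 0.29. Platelet and mast cell markers summed to 623 and 930.4, with Ppbp at 112 and 224, just past 2-fold, Pf4 at a ratio of 0.65 and Cpa3 at -0.63, and Gp9, Tpsb2, Cma1 and Mcpt4 were at or under the floor. The part of these cells in the Runx1 signal was not tested.

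**Figure D3:**
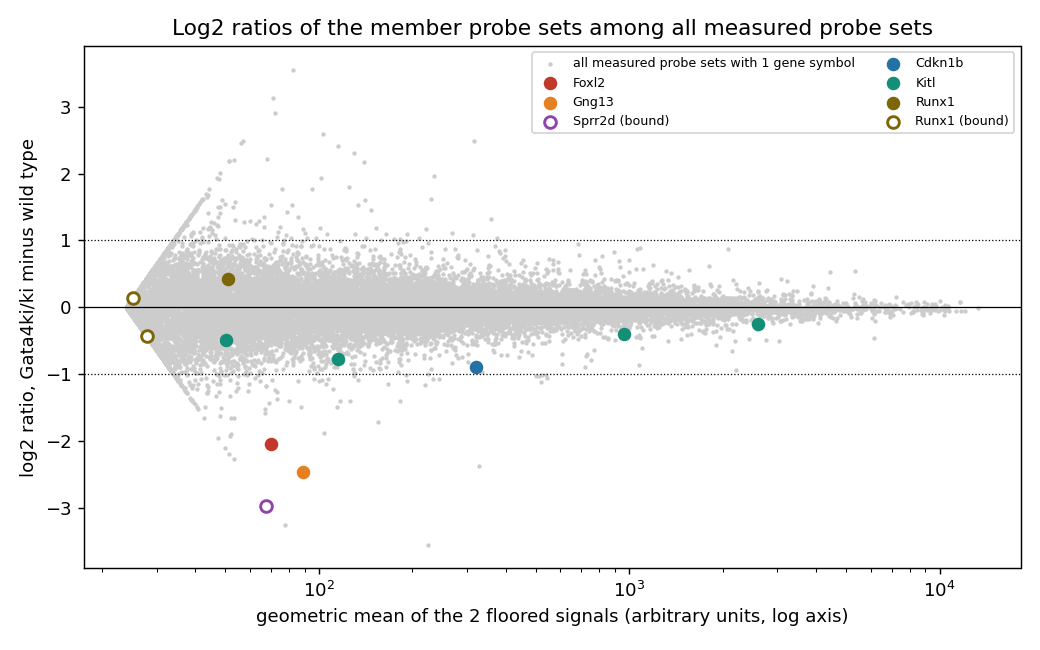
Log2 ratio (Gata4ki/ki minus wild type, y axis) against the geometric mean of the 2 floored signals (arbitrary units, log axis) for the 21238 measured probe sets with 1 symbol (grey) and for the member probe sets (coloured, open where 1 array was at or under the floor), with dotted lines at 2-fold. Foxl2, Gng13 and Sprr2d lie below nearly all probe sets of similar signal, Cdkn1b lies just inside 2-fold and the Runx1 points lie among the grey ones.

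Foxl2, Gng13 and Sprr2d stood beside few other genes. With 1 array per group, likeness of pattern is the log2 ratio alone. Among the 11462 genes that exceeded the floor on each array, those with a ratio at or below that of Foxl2 were Fst, Gng13, Tcl1b3 and Akr1c14. Fst gave 769.5 and 65.6, a ratio of -3.55, and 242 and 25.2 on its second probe set. Tcl1b3, a member of the Tcl1 oncogene family, gave 746 and 144, a ratio of -2.37, and Akr1c14, a hydroxysteroid dehydrogenase, gave 117 and 24.2, a ratio of -2.27. The next gene above Foxl2 was Plxdc1, with 101 and 26.5 and a ratio of -1.93. Of these 11462 genes 0.427% were at least 2-fold lower.

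Other genes of the early ovarian supporting lineage were spread on both sides. Of 13 measured genes of that list 3 were at least 2-fold lower and 1 at least 2-fold higher, 9 were not 2-fold apart, and the median was 0.01. Beside Fst, the homeobox genes Msx1 and Irx3 were lower, with ratios of -1.41 and -1.06. Nr0b1, an orphan nuclear receptor, gave 112 and 240, a ratio of 1.09. The WNT pathway genes Wnt4, Rspo1 and Axin2 had ratios of -0.28, 0.34 and 0.13, and Lgr5, an R-spondin receptor, had 0.62. Dapl1 and Esr2 were at or under the floor.

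Genes that FOXL2 binds as partners or regulates were mostly within 2-fold. Of 13 measured genes 1, Fst, was at least 2-fold lower and 1, Star, at least 2-fold higher. Star, which carries cholesterol into mitochondria and is repressed by FOXL2, gave 19.1 and 91.7 on its brightest probe set, a ratio of at least 1.93, and ratios of 0.17 and at least 0.91 on the others. Smad3, a cofactor of FOXL2 at the Fst gene, had a ratio of -0.25 on its brightest probe set and of -1.07 or less on a dimmer one. Sox9, the Sertoli gene that FOXL2 holds down, gave 59.3 and 72.1, a ratio of 0.28, and Dmrt1 had -0.71. The median was 0.03.

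Partners of GNG13 and other gamma subunits did not share its difference in size. Of 9 measured gamma subunit genes 0 were 2-fold apart, and the median was -0.03. Gng8 was at 0.83 or more, Gng3 at 0.42 and Gng10 at 0.36. Gng4 was at -0.46 on its brightest probe set and at 0.50 or more on another. Of 8 measured partners 0 were 2-fold apart, with Itpr3 at -0.51 and Gnb1 at 0.52 on its brightest probe set and -0.04 on another. Gnb3 and Plcb2, which act with GNG13 in taste cells, were at or under the floor on both arrays. Trpm5, of the same list, was measured. It gave 52.3 and 60.1 on its brightest probe set, a ratio of 0.20, and 0.76 or more and -0.03 on others.

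Of 13 genes of the cornified envelope and its keratins on the array 4 were measured, and 0 of them were 2-fold apart. Lor, which encodes loricrin, gave 259 and 225 on its brightest probe set, a ratio of -0.20, and a ratio of 0.25 on another. Krt10, a keratin of differentiating epidermis, gave 353 and 373. Ivl, Flg, Tgm1, Sprr1a, Sprr1b and Sprr3 were at or under the floor on both arrays. The squamous epithelium markers Trp63, Krt5, Krt15, Pitx1 and Sfn were likewise at or under the floor. Krt14, a keratin of the same list, gave 17.9 and 29.3 on 1 probe set, at least 1.22-fold higher, and its other probe sets were not measured. Amhr2, the anti-Müllerian hormone receptor, gave 2620 and 1838 in the same list, a ratio of -0.51. Which cells of the complexes its signal came from was not tested. Wnt7a and Perp had -0.63 and 0.40. The sums of the 4 measured genes, mostly Amhr2, were 2749 and 1968, and their part in the Sprr2d values was not tested.

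**Figure D4:**
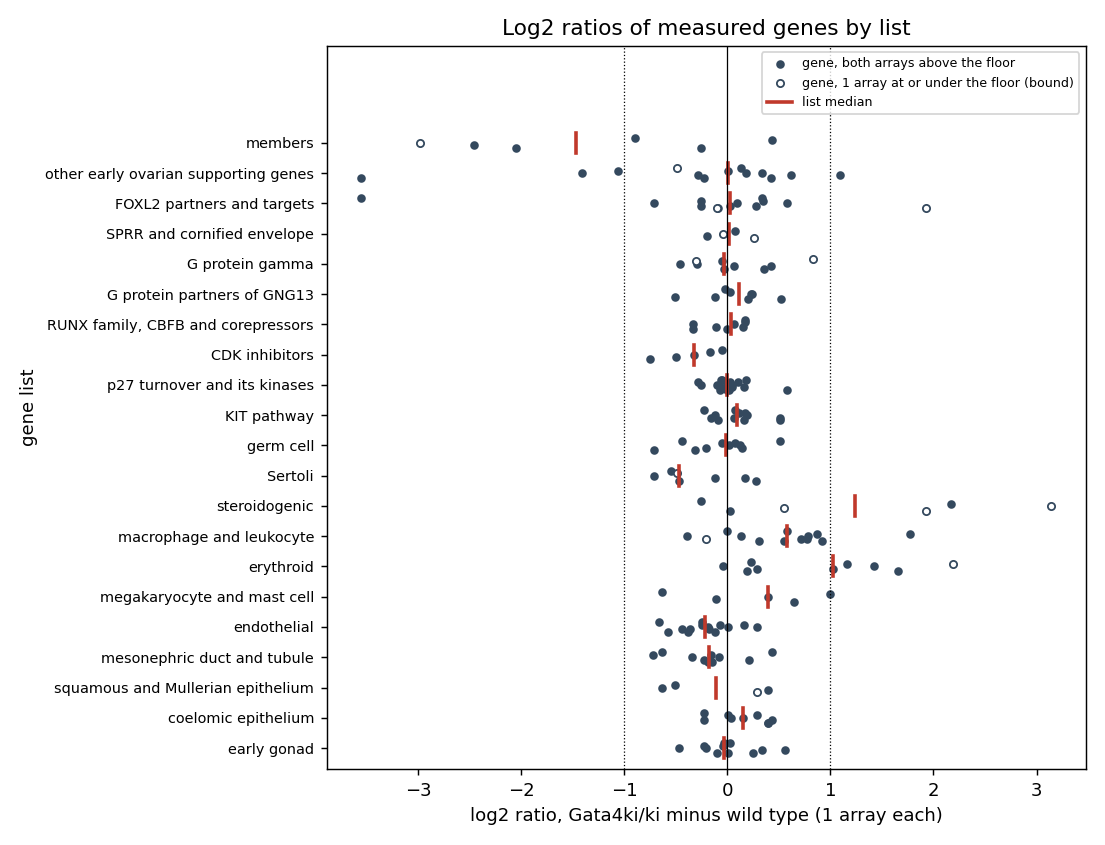
Log2 ratio (Gata4ki/ki minus wild type, 1 array each, x axis) of each measured gene by list (y axis), with filled points for genes above the floor on both arrays, open points for bounds, red bars for list medians and dotted lines at 2-fold. Of the members 3 lie beyond 2-fold on the low side, and steroidogenic, erythroid and macrophage genes extend to the high side.

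Markers of the labelled tissue were present on both arrays. Xist, the RNA of the inactive X chromosome, gave 1805 and 1742, and Eif2s3y, Kdm5d and Uty, which lie on the Y chromosome, were at or under the floor. Of 11 measured early gonad genes 0 were 2-fold apart, with sums of 9942 and 9624, a median of -0.03, and Wt1 at 1461 and 1475. Nr5a1 and Numb had ratios of 0.34 and -0.47. Gata4 gave 241 and 286 on its brighter probe set and 49.2 and 34.6 on the other, which does not check the allele. Its cofactor gene Zfpm2 (FOG2) gave 530.2 and 784, a ratio of 0.56, and 0.97 on its second probe set. Mesonephric genes had sums of 2958 and 2565 and a median of -0.17, with Calb1 at -0.72. On their brightest probe sets Cdh6 and Lhx1 went the other way, at 0.43 and 0.21. Coelomic epithelium genes had 5151 and 5572 and a median of 0.15, with Krt8 at 0.43. Upk3b and Upk1b were each at -0.23 on their brightest probe sets.

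The germ cell, Sertoli and steroidogenic lists bear on the other cells of the gonad. Germ cell genes summed to 2427 and 2312, 0 of 10 were 2-fold apart, 5 had a ratio below 0 and 5 above it, and the median was -0.01. Dnd1 had -0.71, Kit 0.51 and Rnf17 -0.44 on its brightest probe set, with 0.43 or more on another. Of 7 measured Sertoli genes 0 were 2-fold apart, and the median was -0.47. Dmrt1, Aard and Fgf9 had -0.71, -0.55 and -0.47, whereas Sox9, the defining gene of the lineage, had 0.28 and Ptgds 0.17, and Amh, Dhh and Sox8 were at or under the floor. Of 6 measured steroidogenic genes 3 were at least 2-fold higher, as were 0.846% of all measured genes. The 3 were Cyp17a1 at 3.14 or more, Hsd3b1 at 2.17 and Star as above. Cyp11a1 was at 0.55 or more, Fdx1 at 0.03 and Scarb1 at -0.25 on its brightest probe set. The steroidogenic sums were 1224 and 1709.9. Sox17 and Sox18, endothelial genes, had -0.66 and -0.57, and the endothelial median was -0.21. Kdr, Tie1 and Erg of the endothelial list went the other way, at 0.29, 0.16 and 0.01. Gonad and mesonephros were read as a single tissue piece, so fewer pre-granulosa cells and less RNA of a member per cell cannot be told apart.

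The members kept their side of 2-fold under each of the 9 alternative settings tried, with bounds taken at their value. Not every setting could move a ratio. Foxl2, Gng13, Sprr2d and Cdkn1b each had 1 measured probe set. For them, the settings that changed the probe sets used or their summary repeated the reported value. The rescalings moved little, as both arrays had the same trimmed mean as deposited. Sprr2d ranged from -3.48 to -1.96, the smallest difference coming with the floor raised to the 60th percentile. Gng13 ranged from -2.46 to -2.06 and Foxl2 from -2.05 to -1.55. Cdkn1b ranged from -0.90 to -0.85, Kitl from -0.45 to -0.24 and Runx1 from 0.14 to 0.44.

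**Figure D5:**
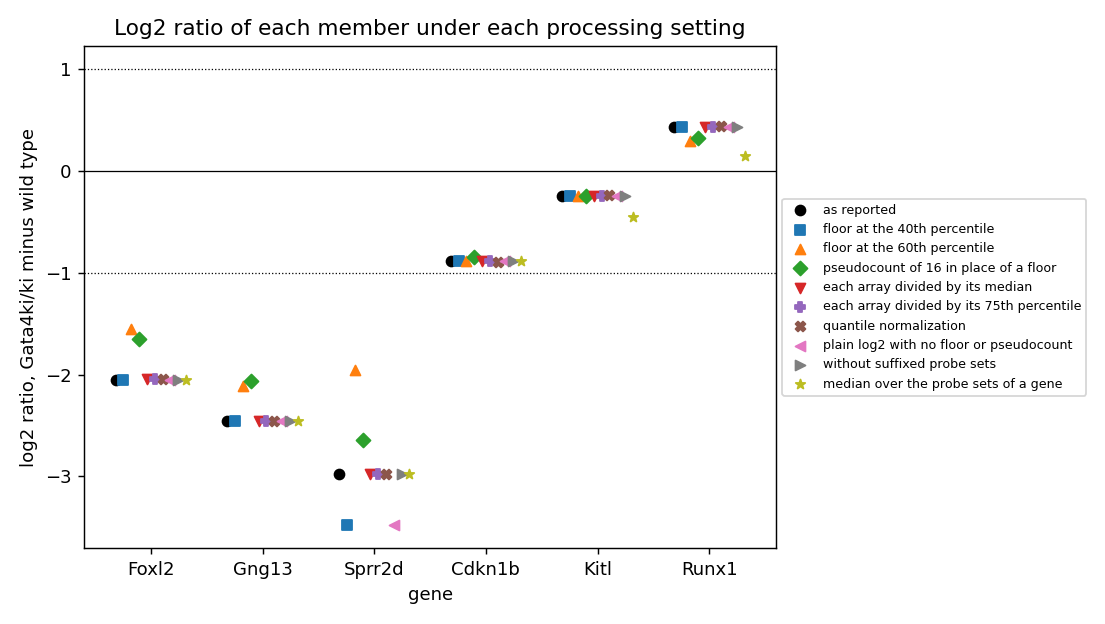
Log2 ratio (Gata4ki/ki minus wild type, y axis) of each member gene (x axis) as reported (black circle) and under 9 alternative settings (coloured markers), with dotted lines at 2-fold. Foxl2, Gng13 and Sprr2d stay beyond 2-fold, while Cdkn1b, Kitl and Runx1 stay within it.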

How the data were processed

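The authors deposited 1 signal intensity per probe set and array on a linear scale, for which the submitters' processing notes name MAS5; its version, detection calls and filters were not given in the sources used here. With 2% of probe sets trimmed at either end both arrays had a mean of 150.0, so the values were used as deposited. Of 45101 probe sets, 932 had several gene symbols, 9160 had none listed and 64 were controls; these took no part in the gene counts. Signals were floored at the 50th percentile (24.0) and log2 ratios formed with Python 3.11.15 and pandas 2.3.3. A gene is represented by its brightest measured probe set. The procedure was tested on simulated data, with changes set only in probe sets well above the floor. Those were brighter on average than Foxl2, Gng13 and Sprr2d here, so the simulation does not cover their signals. The members and 21 gene lists were chosen with earlier results of these data known. Named are all members, Gata4, Zfpm2, Fst and Kit, genes of each list at least 2-fold apart and up to 4 with the largest ratios, and, of those exceeding the floor on each array, genes at or below the ratio of Foxl2; others complete a group and were picked with their values in view. All 6 member symbols matched RefSeq (GRCm38.p6). The alternatives changed the floor, the scaling, the probe sets used and their summary. The number of arrays limits the precision.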

Additional observations from a re-analysis of the deposited data

How the results depend on the processing

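With 1 array per group, no replicate could be left out, and no paired analysis was possible because each group has a single array. The counts of member genes and probe sets at least 2-fold lower (3) and higher (0) were the same under every alternative tried. The counts over all probe sets moved with the floor. From 132 lower and 160 higher they became 320 and 354 when floored at the 40th percentile, 50 and 57 at the 60th percentile, and 3772 and 3780 with plain log2 values and no floor, where dim probe sets enter. Scaling by the median, by the 75th percentile or by quantiles left the median ratio of probe sets above the floor on both arrays at 0.00 and changed no member's call. Both arrays already had a trimmed mean of 150.0, so these scalings could move little. At low signal the precision is poorest: the mutant signals of Foxl2, Gng13 and Sprr2d, and all Runx1 signals, lie near or under the floor.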
